A study of Mus musculus with 16 samples.

Results

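Ebf1, Ebf2, Ebf3, Zfp423, Zfp521 and Zfp467 encode DNA-binding proteins tied to the commitment of fat precursor cells. They were taken by gene symbol from the table of read counts, 6 of its 38720 lines, and all 6 were among the 16842 genes that passed the filter for low counts. The libraries were made from adipose progenitors of mice aged 4 weeks, with 4 libraries in each of 4 groups. KO VAT and KO SAT came from the visceral and the subcutaneous fat of mice with the genotype B6;129S2-Nr4a1tm1Jmi/J, and WT VAT and WT SAT from the same depots of C57BL/6J wild type mice. Nr4a1, an orphan nuclear receptor gene that many cells switch on early after a stimulus, is altered in the germ line by this allele, so every cell of a KO mouse carries it. The strain names of KO and WT differ, so the allele and its 129S2 strain background cannot be told apart, and the labels do not say how cells were sorted beyond the word MACS in the column names. No label ties replicates to separate animals, and the p-values therefore rest on the spread among these libraries alone. Fewer cells of a type and less RNA per cell cannot be told apart in such bulk libraries.

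EBF proteins bind DNA as dimers and were named for their role in early B cells, and several of them are also present in cells of the fat lineage. Ebf1 and Ebf2 are known to promote adipocyte differentiation together with Pparg, and Ebf2 is known to mark precursors of brown and beige fat. Zfp423 is a regulator of preadipocyte commitment that binds EBF and SMAD proteins, sensitises cells to bone morphogenetic protein (BMP) signals, and restrains Ebf2 at thermogenic genes in white adipocytes by way of the NuRD corepressor complex. Its paralog Zfp521 holds back adipogenesis and acts on Ebf1. Zfp467 is known from bone marrow stromal cells of mice, where it favours adipocyte over osteoblast fate.

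The start regions show what the promoters hold in the way of EBF and NR4A letters. RefSeq windows from 250 bases before to 50 bases after a start site (GRCm38.p6, the assembly of build mm10) were matched for 4 of the 6 genes, and 2 of these genes had a pair of windows each. Ebf2 and Zfp521 are named only. The EBF core CCCNNGGGA, searched on both strands, was present in the windows of Ebf3 and Zfp467, which are printed here from 5′ to 3′ on the strand of the gene because these were the genes with the largest fall and the only rise in VAT. Capitals mark the EBF core, which in Ebf3 is read on the opposite strand.
Ebf3 (chr7:137314396-137314695, minus strand): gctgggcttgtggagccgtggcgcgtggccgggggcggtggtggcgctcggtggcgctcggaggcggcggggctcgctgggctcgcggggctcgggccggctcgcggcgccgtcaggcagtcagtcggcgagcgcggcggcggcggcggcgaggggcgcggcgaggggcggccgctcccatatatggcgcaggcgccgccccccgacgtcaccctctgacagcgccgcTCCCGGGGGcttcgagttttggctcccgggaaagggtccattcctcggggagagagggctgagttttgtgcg
Zfp467 (chr6:48445041-48445340, minus strand): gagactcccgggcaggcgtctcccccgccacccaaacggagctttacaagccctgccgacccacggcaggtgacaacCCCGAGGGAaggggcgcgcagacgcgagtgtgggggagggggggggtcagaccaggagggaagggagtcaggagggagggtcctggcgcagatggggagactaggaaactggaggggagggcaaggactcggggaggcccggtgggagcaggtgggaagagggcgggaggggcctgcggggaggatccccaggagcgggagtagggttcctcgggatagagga
The match began 22 bases before the start site of Ebf3 and 173 bases before that of Zfp467. The Ebf3 window had a GC content of 77% with 46 CpG pairs, against 69.7% in the Zfp467 window. The NR4A monomer site AAAGGTCA (the NBRE), searched on both strands, had 0 matches in the 6 windows, and neither motif was present in the pairs of windows of Ebf1 and Zfp423. Of 32817 mouse windows of the same length, 6.56% held the EBF core and 1.51% held the NBRE. A match describes letters and not binding.

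Library totals ran from 34655519 counts in WT SAT replicate 3 to 55551845 in KO SAT replicate 4. Levels are in CPM, read counts divided by the TMM-adjusted size of their library. Nr4a1 stood at 297 to 327 CPM in KO VAT against 1432 to 1649 CPM in WT VAT, and at 195 to 209 CPM in KO SAT against 997 to 1212 CPM in WT SAT, so its reads were lower in every KO library and did not reach 0. The 10 progenitor markers (Pdgfra, Cd34, Ly6a, Dcn and others) were all detected and summed to 11735 to 13120 CPM in KO VAT, 14310 to 15187 in WT VAT, 17110 to 18341 in KO SAT and 17237 to 23138 in WT SAT. WT SAT replicate 3 stood apart with the highest of these sums, but had the lowest Pdgfra of the SAT libraries, 595 CPM. The 4 libraries of KO VAT held the 4 lowest sums. Dcn, the highest marker in each group, averaged 7807 CPM in KO VAT, 9788 in WT VAT, 7853 in KO SAT and 9370 in WT SAT. In the KO against WT test described below, 0 of the 10 were called in VAT, where 4.10% of all tested genes were. DESeq2 called 2 lower. Leaving out KO VAT replicate 1 gave 1 higher, and leaving out KO VAT replicate 3 gave 1 lower. Ebf1 is also a B cell gene. Of 9 B cell markers, the antibody gene Ighm averaged 91.1 CPM in KO VAT, 28.5 in WT VAT, 30.2 in KO SAT and 13.1 in WT SAT, and the highest value of any of the others in any library was 0.616 CPM, for Cd79a in KO VAT.

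Ebf1 was the most abundant of the factors per length of exon in all 4 groups, followed by Ebf2 and then Zfp521. Levels per length are CPM per kilobase of merged exon, the scale on which genes can be set beside each other. Ebf1 averaged 24.3 CPM per kilobase in KO VAT, 23.3 in WT VAT, 36.8 in KO SAT and 41.7 in WT SAT (n = 4 libraries each, also below). Ebf2 averaged 14.3, 17.5, 24.7 and 23.8 CPM per kilobase in the same order of groups, and Zfp521 averaged 5.79, 7.34, 12.02 and 11.7.

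The 3 lowest of the 6 genes changed places between the depots. In KO SAT the order went on with Ebf3 at 6.92, Zfp423 at 4.06 and Zfp467 at 2.55 CPM per kilobase, and in WT SAT with Ebf3 at 6.43, Zfp423 at 4.50 and Zfp467 at 2.998. No neighbours in the order overlapped over the 4 libraries of either SAT group. In KO VAT the order was Zfp467 at 4.27, Zfp423 at 2.93 and Ebf3 at 2.76, and both neighbouring pairs overlapped. WT VAT had Zfp467 at 3.65 above Zfp423 at 2.82 and Ebf3 at 2.78, of which Zfp423 and Ebf3 overlapped. Among the 14131 protein-coding genes tested, 88.5 to 93.4% had a lower level per length than Ebf1 across the groups, and 42.1 to 53.2% a lower one than Zfp467.

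**Figure D1:**
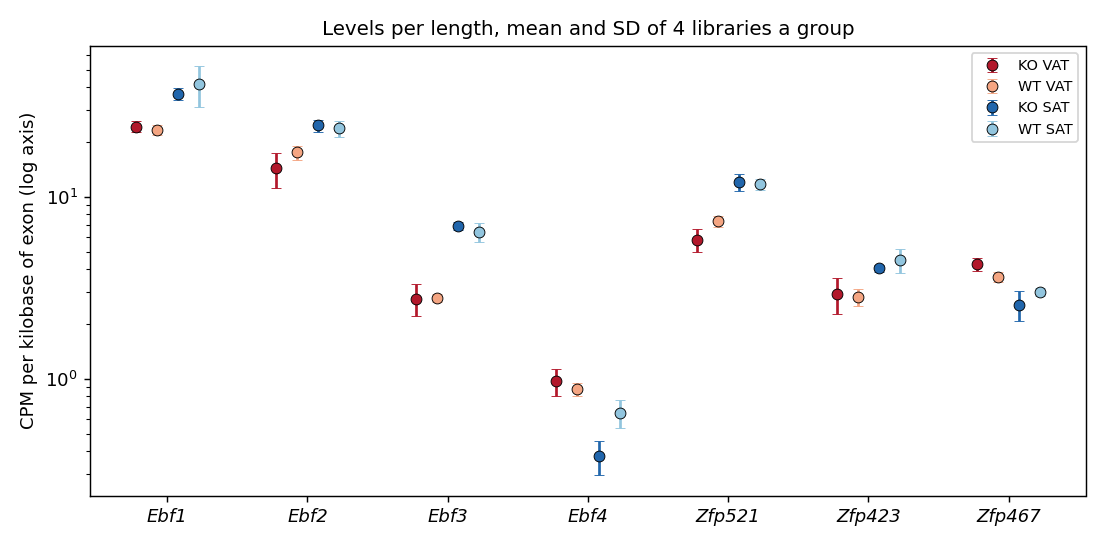
Level per length (CPM per kilobase of exon, log axis) of the 6 factors and of Ebf4 in KO VAT, WT VAT, KO SAT and WT SAT, as mean and SD of 4 libraries a group. Ebf1 is highest and Ebf4 lowest in every group, and Zfp467 and Ebf4 have their higher levels in the VAT groups.

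Within the EBF family, Ebf1 and Ebf2 made up most of the summed level per length. Ebf1 held 57.7 ± 3.7% of the summed EBF level in KO VAT, 52.3 ± 3.2% in WT VAT, 53.5 ± 0.51% in KO SAT and 56.9 ± 7.7% in WT SAT (SD, n = 4). Ebf3 held 6.48 ± 0.75% in KO VAT and 6.26 ± 0.21% in WT VAT, against 10.1 ± 0.70% in KO SAT and 9.004 ± 1.8% in WT SAT. The WT SAT share of Ebf3 includes WT SAT replicate 3 at 6.32%, inside the range of the KO VAT libraries. In that library Ebf1 held 68.4%, against 52.6 to 53.5% in the other WT SAT libraries. Shares of the same sum move against each other.

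These genes differed between the depots, and edgeR called none of them between the Nr4a1 genotypes. In VAT relative to SAT, 5 of the 6 (Ebf1, Ebf2, Ebf3, Zfp423 and Zfp521) fell in both genotypes, and Zfp467 rose in KO. A gene was called when its Benjamini-Hochberg adjusted p over all 16842 genes, from edgeR's quasi-likelihood test, was under 0.05. VAT and SAT did not overlap in CPM for 6 of 6 genes in KO, where the background is 45.6% of all tested genes, and for 6 of 6 in WT, where it is 34.1%. Over all tested genes 43.3% were called in KO (20.0% lower and 23.3% higher in VAT) and 36.7% in WT (17.6% lower and 19.1% higher). The median log2 fold change of the 6 genes in VAT against SAT was -0.69 in KO and -0.67 in WT, beside medians over all tested genes of 0.017 in KO and -0.0044 in WT.

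The KO comparison asks whether loss of Nr4a1 moves these genes within a depot. In VAT 0 of 6 were called by edgeR, where 4.10% of tested genes were, and 2 of 6 (Ebf2 and Zfp521) had an unadjusted p under 0.05, where 17.4% of tested genes did. DESeq2 called 1 of 6 in VAT, Zfp521, where it called 7.56% of genes, and limma-voom called 0. In SAT 0 of 6 were called by edgeR, where 5.89% of tested genes were, 0 had an unadjusted p under 0.05 (22.5% of tested genes), and DESeq2, which called 11.2% of genes, and limma-voom called 0. Groups did not overlap for 1 of 6 genes in VAT, Zfp521, where 13.7% of tested genes did not, and for 0 of 6 in SAT, where 14.7% did not. A p that misses the threshold does not show equal levels, so intervals are given for each gene.

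**Figure D2:**
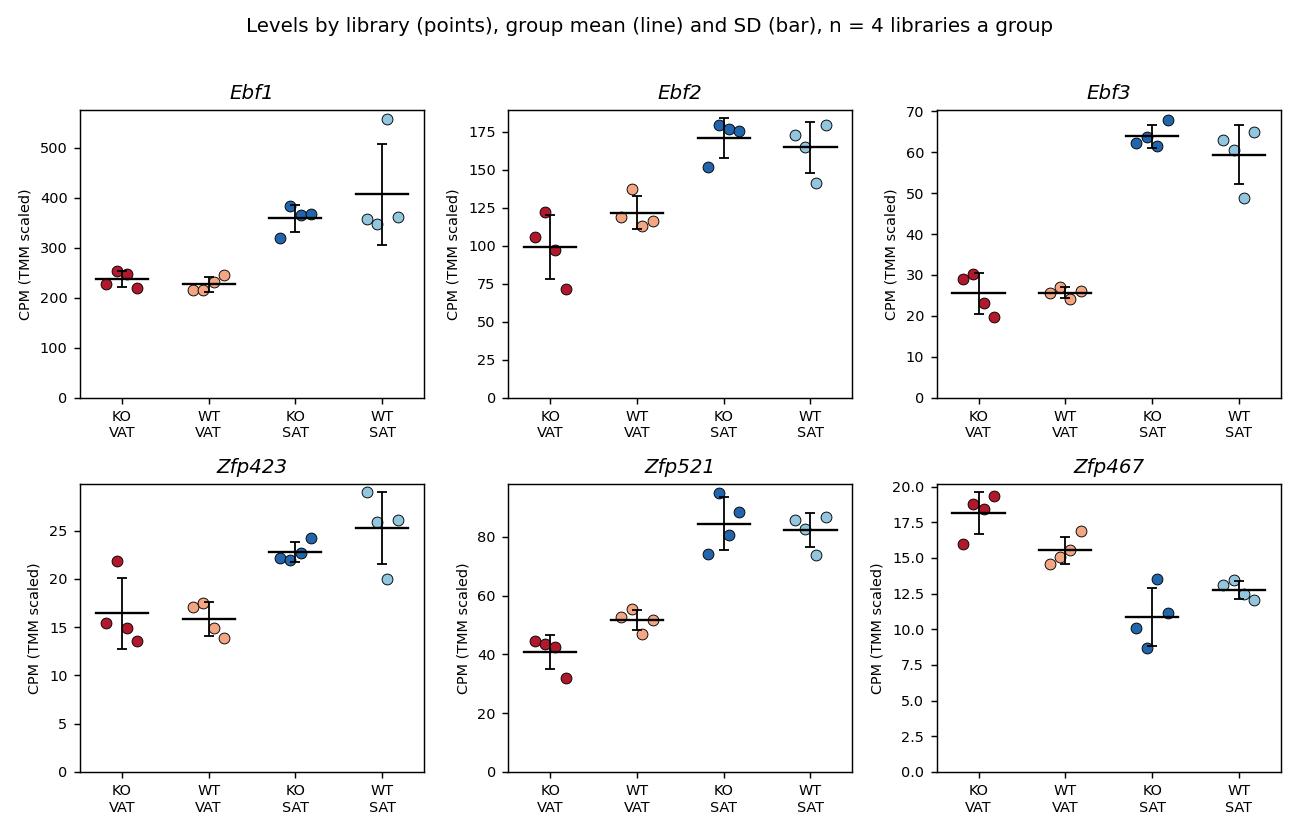
CPM of each factor in every library, with points for libraries and lines for the mean and SD of 4 libraries in KO VAT, WT VAT, KO SAT and WT SAT. Within each genotype the VAT libraries lie below the SAT libraries for 5 genes and above them for Zfp467, and 1 library of WT SAT lies far above the rest for Ebf1.

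Ebf1 (chr11:44617317-45008091, plus strand, build mm10) encodes the EBF protein best known from B cell development and is also an adipogenic factor. Ebf1 had 228, 254, 248 and 219.8 CPM in the KO VAT libraries, against 216, 215, 231 and 246 CPM in WT VAT. Its levels were 319.8, 383, 366 and 367 CPM in KO SAT, against 358, 348, 559 and 362 CPM in WT SAT. KO and WT overlapped within each depot, every VAT library lay below every SAT library, and WT SAT replicate 3 stood far above all others. The log2 fold change of VAT against SAT was -0.60 ± 0.12, adjusted p = 0.000859 in KO and -0.84 ± 0.12, adjusted p = 4.05e-05 in WT. Without WT SAT replicate 3 the WT change was -0.65 with an adjusted p of 2.85e-06. KO against WT gave 0.07 ± 0.12 (95% interval -0.20 to 0.33), adjusted p = 0.854 in VAT and -0.18 ± 0.12 (95% interval -0.44 to 0.08), adjusted p = 0.403 in SAT, and the SAT value was 0.011 without WT SAT replicate 3.

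Ebf2 (chr14:67233292-67430918, plus strand), the precursor marker of brown and beige fat, was next to Ebf1 in abundance. Ebf2 had 106, 122, 97.1 and 71.5 CPM in the KO VAT libraries, against 119, 138, 113 and 116 CPM in WT VAT. Its levels were 152, 179, 177 and 175 CPM in KO SAT, against 173, 165, 141 and 179.7 CPM in WT SAT. KO VAT replicate 4 was the lowest library of all, KO and WT overlapped in both depots, and VAT lay below SAT throughout. In VAT against SAT Ebf2 changed by -0.78 ± 0.13, adjusted p = 7.63e-05 in KO and by -0.44 ± 0.13, adjusted p = 0.0113 in WT. The KO against WT difference was -0.29 ± 0.13 (95% interval -0.56 to -0.03), adjusted p = 0.236 in VAT, with an unadjusted p of 0.0329, and 0.05 ± 0.13 (95% interval -0.21 to 0.32), adjusted p = 0.837 in SAT. The VAT value was -0.17 without KO VAT replicate 4. The antisense gene Gm10860 overlaps 424 exon bases of Ebf2, and the kit does not mark strand. Gm10860 had 7 to 48 counts in a library. How reads in the overlap were assigned is not given, so these counts do not show whether Ebf2 lost or gained reads there.

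Ebf3 (chr7:137193673-137314445, minus strand), an EBF gene and the one whose start window is printed above, had the largest depot difference of the 6. Ebf3 had 28.9, 30.3, 23.1 and 19.6 CPM in the KO VAT libraries, against 25.5, 27.1, 24.1 and 26.04 CPM in WT VAT. Its levels were 62.3, 63.8, 61.5 and 67.9 CPM in KO SAT, against 63.1, 60.6, 48.9 and 64.9 CPM in WT SAT. SAT libraries held well over the VAT level in each genotype, with no overlap, and KO and WT overlapped within each depot. VAT stood at a fold of 0.399 of SAT in KO (log2 -1.33 ± 0.12, adjusted p = 8.43e-08) and at 0.432 in WT (log2 -1.21 ± 0.12, adjusted p = 3.09e-07). KO against WT was -0.01 ± 0.12 (95% interval -0.26 to 0.23), adjusted p = 0.975 in VAT and 0.11 ± 0.11 (95% interval -0.14 to 0.35), adjusted p = 0.616 in SAT. The VAT value changed sign under upper-quartile scaling and under library totals, at 0.026 and 0.029.

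Zfp423 (chr8:87661810-87959595, minus strand), the commitment factor that binds EBF proteins, was mid-range per length. Its level lay above that of 43.3 to 54.8% of the tested coding genes across the 4 groups. Zfp423 had 15.4, 21.8, 14.9 and 13.6 CPM in the KO VAT libraries, against 17.1, 17.5, 14.9 and 13.8 CPM in WT VAT. Its levels were 22.1, 21.9, 22.7 and 24.3 CPM in KO SAT, against 28.96, 25.9, 20.03 and 26.1 CPM in WT SAT. VAT lay below SAT in both genotypes, by a narrow margin in KO, where KO VAT replicate 2 almost reached the SAT libraries. VAT against SAT was -0.47 ± 0.13, adjusted p = 0.00911 in KO and -0.68 ± 0.14, adjusted p = 0.000723 in WT. KO against WT was 0.05 ± 0.14 (95% interval -0.23 to 0.34), adjusted p = 0.894 in VAT and -0.15 ± 0.13 (95% interval -0.43 to 0.13), adjusted p = 0.524 in SAT, and the VAT value was -0.11 without KO VAT replicate 2.

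Zfp521 (chr18:13687013-13972787, minus strand), the paralog that holds back adipogenesis, came closest to a KO difference. Zfp521 had 44.6, 43.6, 42.6 and 32.1 CPM in the KO VAT libraries, against 52.5, 55.4, 47.02 and 51.5 CPM in WT VAT. Its levels were 74.1, 94.8, 80.5 and 88.5 CPM in KO SAT, against 85.6, 82.8, 73.9 and 86.7 CPM in WT SAT. All 4 KO VAT libraries lay below all 4 WT VAT libraries, with KO VAT replicate 4 lowest, whereas KO SAT and WT SAT overlapped. Means were 40.7 ± 5.82 CPM in KO VAT and 51.6 ± 3.49 in WT VAT (SD, n = 4). KO against WT in VAT gave -0.34 ± 0.10 (95% interval -0.56 to -0.13), adjusted p = 0.0678 with edgeR and -0.34, adjusted p = 0.0287 with DESeq2, and the adjusted p ran from 0.0287 to 0.185 over the alternatives on the CPM scale, the highest without KO VAT replicate 4 (log2 fold change -0.24). The progenitor marker Pdgfra had a KO difference of like size in VAT, -0.36 ± 0.12 (adjusted p = 0.111), and relative to Pdgfra in the same library Zfp521 differed by 0.0072 between KO VAT and WT VAT on the log2 scale, with overlap (exact p = 1.0). This ratio was chosen after seeing the data. The 10 progenitor markers had a median log2 fold change of -0.19 in KO VAT against WT VAT. At an unadjusted p under 0.05 edgeR had 1 of them higher and 3 lower. The part of progenitor markers in the Zfp521 difference was not tested. In SAT the KO against WT difference of Zfp521 was 0.04 ± 0.10 (95% interval -0.17 to 0.25), adjusted p = 0.857. The log2 fold change of VAT against SAT was -1.05 ± 0.10, adjusted p = 2.54e-07 in KO and -0.67 ± 0.10, adjusted p = 4.63e-05 in WT.

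Zfp467 (chr6:48427697-48445825, minus strand), the pro-adipogenic factor of marrow stroma, ran the other way. Zfp467 had 16.01, 18.8, 18.5 and 19.4 CPM in the KO VAT libraries, against 14.6, 15.1, 15.5 and 16.9 CPM in WT VAT. Its levels were 10.1, 8.71, 13.5 and 11.2 CPM in KO SAT, against 13.1, 13.4, 12.5 and 12.03 CPM in WT SAT. Every VAT library was above every SAT library of its genotype, and KO and WT overlapped within each depot. VAT against SAT was 0.74 ± 0.11, adjusted p = 3.23e-05 in KO, and 0.28 ± 0.11, adjusted p = 0.0517 in WT, just outside a call. The WT adjusted p ran from 0.000664 to 0.133 over 20 alternatives, and 7 of these called the gene. DESeq2 (0.0345) and limma-voom (0.0482) were among them, and DESeq2 called 39.6% of genes in WT and 45.7% in KO. The lowest came from scaling by library totals, where the log2 fold change was 0.58 beside a shift of all tested genes of 0.30. With a single library left out the adjusted p was 0.0604 to 0.133, so none of these fits called the gene. KO against WT was 0.22 ± 0.11 (95% interval 0.00 to 0.45), adjusted p = 0.298 in VAT and -0.23 ± 0.11 (95% interval -0.46 to 0.00), adjusted p = 0.23 in SAT, opposite signs with neither called.

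**Figure D3:**
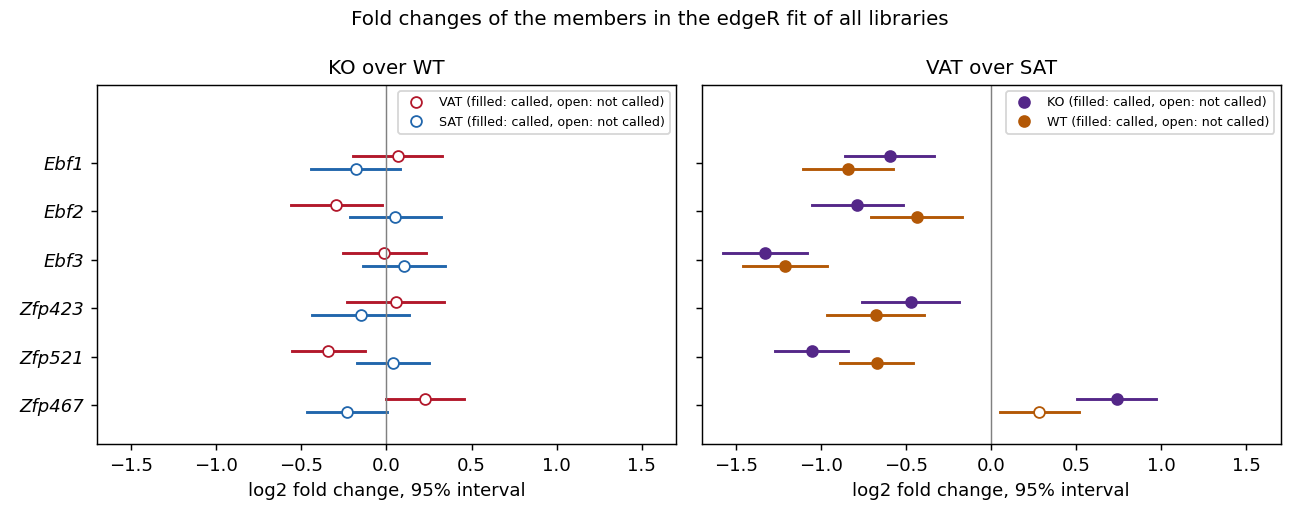
Log2 fold changes of the 6 factors with 95% intervals, for KO against WT in VAT and SAT on one side and for VAT against SAT in KO and WT on the other. The genotype intervals span 0 except those of Ebf2 and Zfp521 in VAT, no genotype difference is called, and the depot intervals lie below 0 for 5 genes and above 0 for Zfp467.

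The KO effects in VAT and SAT were set against each other by an interaction test (VAT minus SAT), which is also the difference between the depot effects in KO and WT. EdgeR called 0 of 6 genes, where 0.267% of tested genes were called, and 2 of 6 (Zfp467 and Zfp521) had an unadjusted p under 0.05, where 16.0% of tested genes did. DESeq2, which called 4.05% of genes, and limma-voom also called 0 of the 6. Zfp467 differed by 0.45 ± 0.15 (95% interval 0.13 to 0.78), adjusted p = 0.182, and Zfp521 by -0.38 ± 0.14 (95% interval -0.68 to -0.08), adjusted p = 0.219. Ebf2 differed by -0.35 ± 0.18, adjusted p = 0.348, Ebf1 by 0.25 ± 0.18, adjusted p = 0.488, Zfp423 by 0.21 ± 0.19, adjusted p = 0.604 and Ebf3 by -0.12 ± 0.16, adjusted p = 0.743.

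Ebf4 (chr2:130295169-130370481, plus strand), the remaining EBF gene, was scarce at 42 to 159 counts a library. Ebf4 had 2.70, 2.68, 3.47 and 3.73 CPM in the KO VAT libraries, against 2.62, 3.11, 2.99 and 2.66 CPM in WT VAT. Its levels were 1.06, 1.09, 1.61 and 1.12 CPM in KO SAT, against 1.90, 2.22, 2.57 and 1.72 CPM in WT SAT. KO SAT lay below WT SAT without overlap and KO VAT overlapped WT VAT. KO against WT in SAT was -0.78 ± 0.19 (95% interval -1.17 to -0.38), adjusted p = 0.021, a call that needed KO SAT replicates 1, 2 and 4 (0.0571 to 0.0708 with any of these left out) and was lost when only the groups compared were fitted (0.0837). In VAT the KO difference was 0.14 ± 0.17, adjusted p = 0.754. VAT against SAT was 1.36 ± 0.18, adjusted p = 1.17e-05 in KO and 0.44 ± 0.18, adjusted p = 0.0625 in WT, so Ebf4, like Zfp467, was called higher in VAT in KO and not called in WT. The WT value had an adjusted p of 0.00308 to 0.16 over 19 alternatives and was called in 7 of them. The interaction was 0.92 ± 0.26, adjusted p = 0.113 with edgeR and 0.0235 as the adjusted p of DESeq2.

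Library scaling bears on the depot folds. Scaling by library totals alone moved the median of all tested genes in VAT against SAT up by 0.35 in KO and 0.30 in WT on the log2 scale. Relative to that shift, Ebf1 was at -0.60 in KO and -0.83 in WT, Zfp423 at -0.48 and -0.68, and Zfp467 at 0.74 and 0.28. Without allowing for the shift, the calls of Ebf1 (-0.25, adjusted p = 0.064) and Zfp423 (-0.13, adjusted p = 0.404) in KO and of Ebf2 (-0.14, adjusted p = 0.326) in WT were lost, and no sign changed.

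Markers of other cell types moved with the depots too. Beside the marker counts of this paragraph and the next stand the shares of all tested genes. In VAT against SAT 23.3% were called higher and 20.0% lower in KO, and 19.1% higher and 17.6% lower in WT. Mesothelial markers, the lining cells of visceral fat, summed to 905 to 1753 CPM in KO VAT and 926 to 1782 in WT VAT, against 8.33 to 11.5 in KO SAT and 8.72 to 14.2 in WT SAT, and 10 of 10 were called higher in VAT in both genotypes. Muc16 was at 0 in all SAT libraries. Pericyte and smooth muscle markers summed to 5072 to 6316 CPM in KO VAT and 5438 to 5866 in WT VAT, against 2219 to 3102 in KO SAT and 2799 to 4681 in WT SAT, with 8 of 10 called higher in VAT in both.

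Schwann cell markers went the other way, at 417 to 483 CPM in KO VAT and 474 to 546 in WT VAT against 846 to 1014 in KO SAT and 943 to 1417 in WT SAT, with 7 of 7 called lower in VAT in both genotypes. Endothelial markers were split. Their sum, most of which was Tek, came to 95.5 to 114 CPM in KO VAT and 121 to 134 in WT VAT against 230.0 to 309 in KO SAT and 206 to 231 in WT SAT, and Tek fell in VAT by 1.98 ± 0.11 in KO and fell by 1.38 ± 0.11 in WT on the log2 scale. The other endothelial calls were higher in VAT, 4 of 8 genes in KO and 3 of 8 in WT, Emcn among them (1.98 ± 0.19 in KO and 1.56 ± 0.19 in WT), and the median of the 8 was 1.45 in KO and 1.02 in WT. Macrophage markers, of which 9 of 10 were matched, summed to 36.1 to 63.3 CPM in KO VAT and 42.0 to 64.9 in WT VAT against 29.0 to 37.2 in KO SAT and 24.6 to 36.0 in WT SAT. Of these 9, 3 were called higher in VAT in KO and 5 in WT, with 0 lower in either. The WT count was 3 without WT SAT replicate 4 or WT VAT replicate 2. Progenitor markers themselves were called lower in VAT for 6 of 10 genes and higher for 1 of 10, in both genotypes. In WT the higher call became 0 when WT SAT replicate 1 or 4 or WT VAT replicate 1, 2 or 4 was left out. The part of these differences in the depot result was not tested.

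Adipocyte markers moved with genotype in VAT, where Zfp521 and Ebf2 had their lower KO values. The 8 markers of lipid-laden adipocytes, such as Plin1 and Adipoq, summed to 919 to 1558 CPM in KO VAT against 551 to 613 in WT VAT, and to 460 to 626 CPM in KO SAT against 438 to 577 in WT SAT. Car3, the highest of the 8, averaged 940 CPM in KO VAT and 359 in WT VAT. Of these 8 markers, 5 were called higher in KO VAT than in WT VAT, where 2.84% of all tested genes were. Without KO VAT replicate 2 or WT VAT replicate 2 this count was 3. In VAT against SAT 8 of 8 were called higher in KO, where 23.3% of all tested genes were. In WT 0 of 8 were (1 without WT SAT replicate 3), beside 19.1% of all tested genes. B cell marker sums, nearly all Ighm, were 46.0 to 127 CPM in KO VAT against 11.2 to 48.9 in WT VAT, and 21.2 to 37.9 CPM in KO SAT against 12.3 to 15.7 in WT SAT. Ighm rose in KO VAT against WT VAT by 1.68 ± 0.37 (adjusted p = 0.0165, or 0.063 without WT VAT replicate 4). It also rose in VAT against SAT, by 1.59 ± 0.37 in KO (adjusted p = 0.00226) and by 1.12 ± 0.38 in WT (adjusted p = 0.0296), where leaving out WT SAT replicate 1, 2 or 4 or WT VAT replicate 1 or 3 ended the call. The part of these markers in the values of the 6 factors was not tested.

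**Figure D4:**
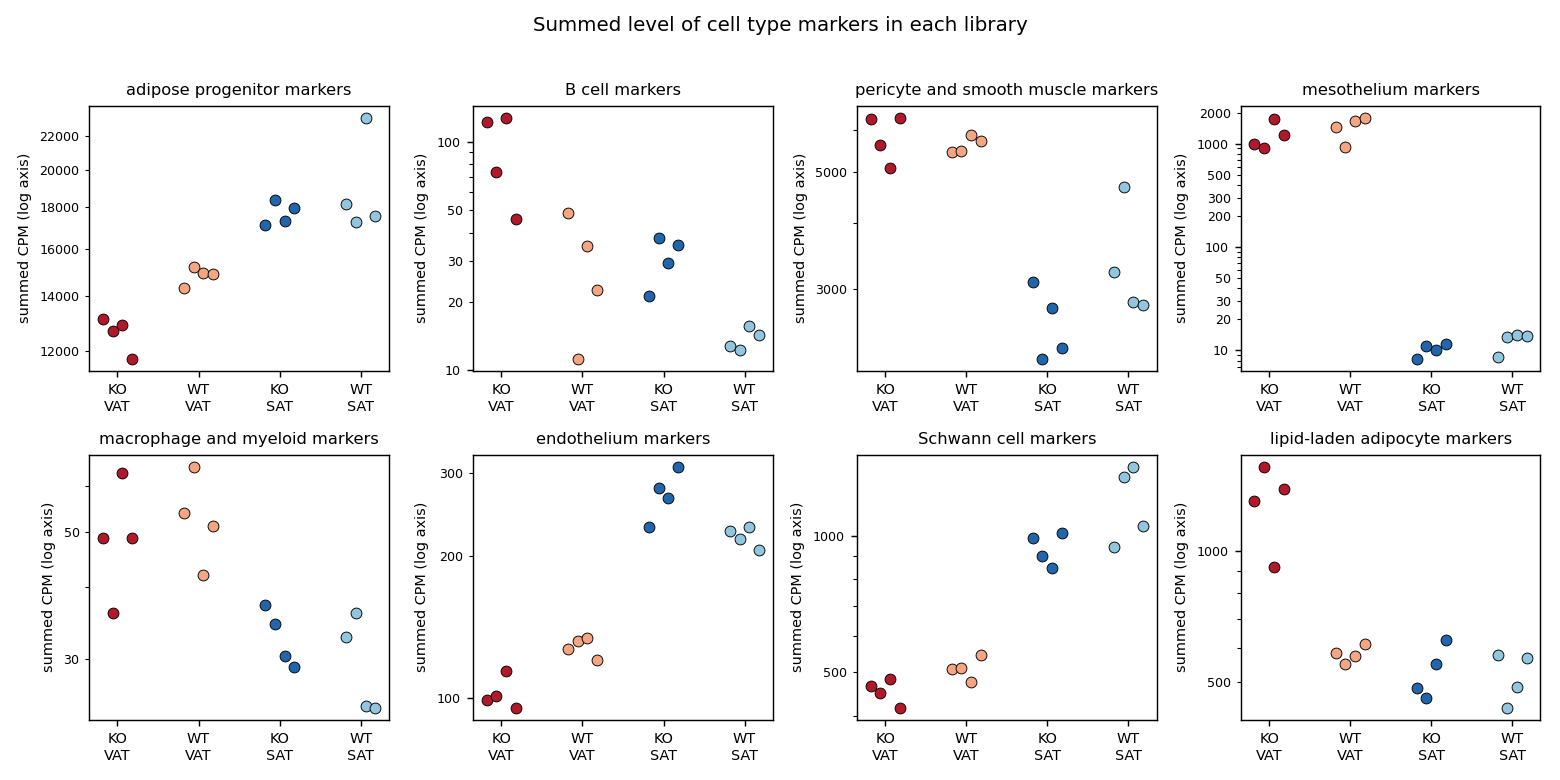
Summed CPM (log axes) of 8 sets of cell type markers, with a point for each library of KO VAT, WT VAT, KO SAT and WT SAT. Mesothelial and pericyte sums are higher in VAT, progenitor and Schwann cell sums are lower in VAT, and adipocyte sums are highest in KO VAT.

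The factors were also read against Pdgfra, the receptor that marks adipose progenitors, in the same library. Pdgfra averaged 519 ± 50.8 CPM in KO VAT, 667 ± 75.8 in WT VAT, 776 ± 21.0 in KO SAT and 809 ± 154 in WT SAT, and fell in VAT against SAT in KO (-0.58 ± 0.12, adjusted p = 0.000818) but was not called in WT (-0.28 ± 0.12, adjusted p = 0.0806). Exact two-sided permutation tests of the log2 ratio, with 4 libraries against 4, cannot go below p = 0.0286, and 12 such tests were adjusted together, so that 0.0572 was the lowest adjusted p found. Ebf3 relative to Pdgfra was lower in VAT, by -0.76 in KO and -0.94 in WT on the log2 scale, with no overlap and an exact p of 0.0286 in each. Zfp521 was at -0.47 in KO and -0.41 in WT, also without overlap, with p = 0.0286 in the exact test.

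The other 4 genes gave mixed ratios to Pdgfra. Ebf1 had -0.01 in KO (exact p = 0.914) and -0.55 in WT (exact p = 0.0857), or -0.25 in WT without WT SAT replicate 3 (exact p = 0.171). Ebf2 had -0.22 in KO (exact p = 0.114) and -0.17 in WT (exact p = 0.0857), and these were -0.12 without KO VAT replicate 4 and -0.10 without WT SAT replicate 3. The depots overlapped for both genes in both genotypes. Zfp423 had 0.09 in KO (exact p = 0.486), the reverse of its CPM difference, and -0.40 in WT (exact p = 0.0286). Zfp467 had 1.34 in KO (exact p = 0.0286) and 0.55 in WT (exact p = 0.0571, with overlap).

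Between genotypes, the ratios to Pdgfra differed from the CPM differences in VAT, where Pdgfra itself was at -0.36 in KO against WT. Ebf2 relative to Pdgfra was at -2.41 ± 0.21 in KO VAT and -2.45 ± 0.090 in WT VAT, and Zfp521 at -3.68 ± 0.16 in KO VAT and -3.69 ± 0.14 in WT VAT (log2, SD, n = 4). Ebf1 (0.42), Zfp423 (0.40) and Zfp467 (0.58) had higher ratios in KO VAT than in WT VAT, each with an exact p of 0.0286, and Ebf3 was at 0.33 with overlap. None of 12 genotype tests of the ratio, adjusted together, was under 0.05, and the lowest adjusted p of these exact tests was 0.114. An exact p cannot go below 0.0286 here. A gene without overlap therefore cannot pass this adjustment by its own values, and the adjusted p cannot decide whether its ratio differed.

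**Figure D5:**
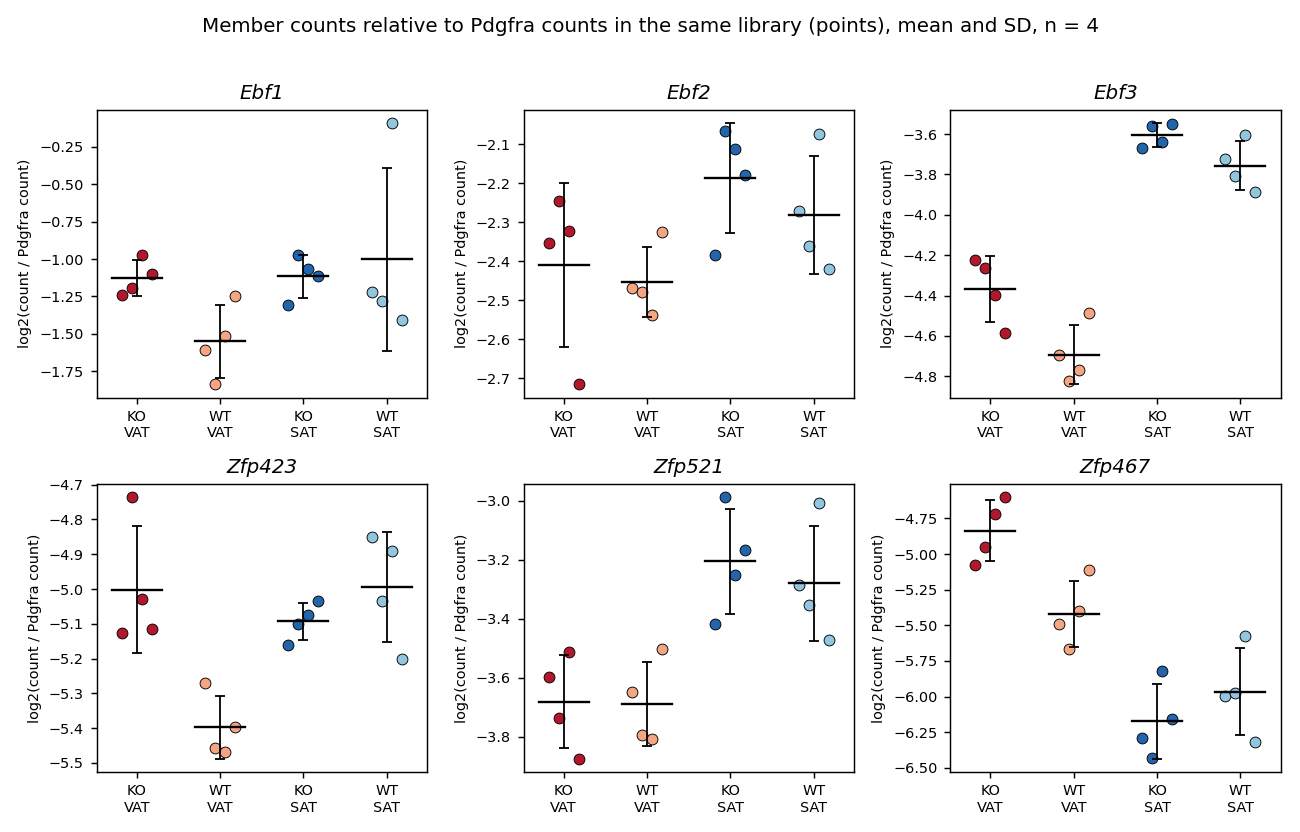
Log2 ratio of each factor's counts to Pdgfra counts in the same library, with points for libraries and the mean and SD of 4 libraries in KO VAT, WT VAT, KO SAT and WT SAT. Ebf3 and Zfp521 lie lower in VAT, Zfp467 averages higher in VAT, and Ebf1 in KO overlaps between the depots.

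Genes of the pathways around these factors were counted from set lists. Among 27 adipogenic transcription regulators, 2 rose and 2 fell in KO VAT against WT VAT, where 2.84% of all tested genes rose and 1.26% fell, and the list's median log2 fold change was -0.06 beside -0.0043 for all tested genes. Klf15, a late adipogenic factor that responds to glucocorticoids, fell by 0.61 ± 0.09 on the log2 scale (adjusted p = 0.000699), and Cebpa, a central driver of adipocyte differentiation, rose by 0.58 ± 0.13 (adjusted p = 0.0152). The call of Cebpa was lost without KO VAT replicate 2 or 4 or WT VAT replicate 1 or 3, when 0 regulators rose, and 1 rose without WT VAT replicate 2 or 4. Cebpd, an early adipogenic factor, fell by 0.55 ± 0.13 (adjusted p = 0.027), a call that held in only 1 of 8 fits with a library left out, the fit without KO VAT replicate 2, and elsewhere 1 regulator fell.

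In KO SAT against WT SAT, 1 of the 27 regulators rose and 5 fell, where 3.46% of all tested genes rose and 2.43% fell, with a median of -0.14 beside -0.010 for all tested genes. With KO SAT replicate 3 or 4 left out 2 fell, and with KO SAT replicate 1 or WT SAT replicate 4 left out 2 rose. Klf15 and Cebpd fell in SAT too, by 0.84 ± 0.09 (adjusted p = 7e-05) and 0.75 ± 0.13 (adjusted p = 0.00302). Egr2, an early adipogenic factor, rose by 0.64 ± 0.12 (adjusted p = 0.00414). The SAT calls of Klf15, Cebpd and Egr2 held with each library left out. In VAT against SAT 8 rose and 5 fell in KO, and 4 rose and 8 fell in WT, with medians of 0.09 in KO and -0.0014 in WT. Over all tested genes 23.3% rose and 20.0% fell in KO, and 19.1% rose and 17.6% fell in WT, shares that also stand behind the depot counts of the lists that follow. Gata3, which restrains adipogenesis, rose by 1.85 ± 0.21 in KO (adjusted p = 1.66e-06). Egr2 rose in VAT against SAT by 0.83 ± 0.12 in WT (adjusted p = 3.5e-05).

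BMP and SMAD genes, the signals that Zfp423 feeds into, gave the decoy receptor Bambi as a shared KO change. Bambi fell by 0.39 ± 0.08 in KO VAT against WT VAT (adjusted p = 0.00913) and fell by 0.55 ± 0.08 in KO SAT against WT SAT (adjusted p = 0.000797). It was the only one of 26 genes called by edgeR in VAT, where the median of the list was -0.14 and 2 fell without KO VAT replicate 1 or WT VAT replicate 2. DESeq2 called 4 lower and 0 higher in VAT and limma-voom 1 lower, and at an unadjusted p under 0.05 edgeR had 7 lower and 0 higher. Over all tested genes edgeR called 4.10% in VAT and 5.89% in SAT, and DESeq2 called 7.56% in VAT and 11.2% in SAT. An unadjusted p under 0.05 in edgeR was found for 17.4% of genes in VAT and 22.5% in SAT. These shares also stand behind the KO counts of the lists that follow. In SAT 2 of 26 fell and the median was -0.05, while DESeq2 called 3 lower and 1 higher. The second, Id3, a target of BMP signals (-0.39 ± 0.10, adjusted p = 0.0254), lost its call with any of KO SAT replicates 1, 3 and 4 or WT SAT replicates 1 and 3 left out, and 1 gene rose with WT SAT replicate 3 left out.

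Depot differences in the BMP list were larger and ran both ways, with 9 genes higher and 12 lower in VAT in KO, and 10 higher and 7 lower in WT, and the list's median was -0.20 in KO and -0.02 in WT. Bambi rose in VAT by 1.86 ± 0.08 in KO and 1.702 ± 0.08 in WT, and the receptor gene Bmpr1b rose by 2.80 ± 0.17 in KO and 2.28 ± 0.17 in WT. Bmp7, a ligand that promotes brown fat, fell by 2.48 ± 0.17 in KO and fell by 2.26 ± 0.16 in WT. The adjusted p of these 6 values was at most 1.15e-08.

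The NuRD complex, the corepressor that Zfp423 and Zfp521 recruit, had 0 of 14 genes called by edgeR in KO against WT in either depot, and 0 by DESeq2 and limma-voom. At an unadjusted p under 0.05 there were 2 in VAT and 2 in SAT, and the medians were 0.0074 in VAT and -0.01 in SAT. In VAT against SAT 4 rose and 4 fell in KO (2 fell without KO VAT replicate 1), and 2 rose and 6 fell in WT (3 fell without WT VAT replicate 1 or 2 or WT SAT replicate 1), with medians of -0.02 in KO and -0.05 in WT. The histone-binding subunit Rbbp7 rose by 0.84 ± 0.10 in KO (adjusted p = 3.31e-06) and by 0.90 ± 0.10 in WT (adjusted p = 1.95e-06). Mbd2, which binds methylated DNA, fell by 0.45 ± 0.07 in KO and fell by 0.34 ± 0.07 in WT.

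Brown and beige genes, the group tied to Ebf2, could be tested for 13 of 15. In KO against WT 2 rose and 0 fell in VAT, while 1 rose and 0 fell in SAT (1 fell without WT SAT replicate 4), with medians of 0.24 in VAT and -0.14 in SAT. Slc36a2, an amino acid transporter of brown adipocytes, rose by 1.53 ± 0.13 in VAT (adjusted p = 4.18e-06) and by 0.72 ± 0.13 in SAT (adjusted p = 0.00279). At an unadjusted p under 0.05 edgeR had 4 higher and 2 lower in VAT, and 3 higher and 2 lower in SAT. DESeq2 called 3 higher and 0 lower in VAT, and 1 higher and 1 lower in SAT.

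In VAT against SAT, 5 of the brown and beige genes fell and 2 rose in KO, while 7 fell and 0 rose in WT, where edgeR had 0 higher at an unadjusted p under 0.05 and DESeq2 called 0 higher. Medians were -0.33 in KO and -0.81 in WT. The count of 2 in KO was 1 without KO VAT replicate 2 or 4 or KO SAT replicate 2 or 3, and the 0 in WT was 1 without any single WT library other than WT VAT replicate 4. Tmem26, a beige surface marker, had 2.56 ± 0.32 CPM in KO VAT against 29.97 ± 1.42 in KO SAT, and 2.64 ± 0.72 CPM in WT VAT against 24.1 ± 1.96 in WT SAT. Tbx1, another beige marker, fell by 5.43 ± 0.44 in KO and fell by 3.52 ± 0.37 in WT. These folds rest on VAT values near 0, with 0.055 CPM in KO VAT against 2.49 in KO SAT. In WT VAT Tbx1 had 0.17 CPM, against 1.95 in WT SAT.

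Osteogenic regulators and markers, the fate that Zfp467 opposes, could be tested for 11 of 15. In VAT against SAT 8 fell in each genotype, while 2 rose in KO and 1 rose in WT, with medians of -0.71 in KO and -1.05 in WT. The collagen gene Col1a1 fell by 1.86 ± 0.11 in KO and fell by 2.03 ± 0.11 in WT, and the regulator Twist1 fell by 1.62 ± 0.08 in KO and fell by 1.42 ± 0.08 in WT. Alpl, the phosphatase of mineralising cells, rose by 2.89 ± 0.18 in KO and by 1.87 ± 0.18 in WT. In KO against WT, edgeR called 0 of 11 in VAT (4 at an unadjusted p under 0.05, and 1 by DESeq2 and by limma-voom), and in SAT 1 rose and 2 fell, with medians of -0.06 in VAT and -0.29 in SAT. Dlx5, an osteoblast homeobox gene, changed in SAT by -1.001 ± 0.20 (adjusted p = 0.00656), and only this call held with each library left out.

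Profiles most like each factor over the 16 libraries were ranked by the root mean square (RMS) difference of centred log2 CPM among 9931 coding genes, as a description with no test. For Ebf1 these were Clmp (0.095), Chst12 (0.10) and Npepl1 (0.11), where the median gene was at 0.42. Ebf2 had Zhx3, Sh3d19 and Wipf1 (each 0.10), Ebf3 had Col5a1 (0.11), Ctsk (0.12) and Anpep (0.12), and Zfp423 had Gnas (0.11), Ttc7b (0.13) and Sgpl1 (0.13). Zfp521 had Xdh (0.091), Axl (0.094) and Qpct (0.10), and Zfp467 had Dgkz (0.12), Bcar1 (0.14) and Eno2 (0.14). Among the 6 factors the closest pair was Ebf2 and Zfp521, at an RMS difference of 0.15, where Ebf2 ranked 32 among the genes most like Zfp521. These values share libraries, depth and the depot difference.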

How the data were processed

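Adipose progenitor RNA was sequenced in 16 libraries. Per the labels' protocols, it was purified on RNeasy Micro columns and read as single reads of 75 bases from NEBNext Ultra libraries, a kit that does not mark strand. The authors deposited whole-number read counts per gene symbol, which were the only values used. Their second table, of scaled values, was not used here. Tools named per the submitters' processing notes are FastQC, STAR, featureCounts and DESeq, with build mm10. Their versions, the gene annotation and the treatment of multimapping reads were not given in the sources used here.

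Genes passing filterByExpr (16842) were TMM-scaled and fitted with edgeR 4.0.16 (glmQLFit, glmQLFTest) in R 4.3.3, with 1 coefficient per group over all 16 libraries, 12 residual degrees of freedom and a biological coefficient of variation of 0.156. Contrasts set KO against WT within a depot, VAT against SAT within a genotype, and the difference between depots in the KO effect. A standard error is the absolute log2 fold change over the square root of F. Ranges of library totals show depth, and the 6 genes had ample counts, while Ebf4 did not. DESeq2 1.42.0, limma 3.58.1, other scalings and filters, replicate blocks and leaving out each library were alternatives. Exon lengths and positions came from GENCODE vM21, and figures were drawn with matplotlib 3.10.9. The count table held 27 lines with names shaped like dates, which stayed in the totals and were not named. Code was tested on simulated data.

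The 6 genes and all lists were chosen with earlier results of these data known. Named genes were the 6, Ebf4, Nr4a1, up to 3 called genes with the smallest p per list and comparison, and for likeness the 3 nearest coding genes whose CPM averaged 5 or more. Pdgfra, which marks the progenitors, and the cell type markers were added beside results.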

Additional observations from a re-analysis of the deposited data

Results flagged for a closer look

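Among 32 groups of 4 libraries examined (the 6 factors, Ebf4 and Nr4a1 in 4 groups each), 4 had a library whose gap to its nearest neighbour, over the range of the group, passed Dixon's 95% critical ratio. Chance gives about 1 in 20. Ebf1 in WT SAT replicate 3 was 559 CPM, with the nearest library at 362 and a ratio of 0.934. That library also had the highest progenitor marker sum of all, but its Pdgfra, at 595 CPM, was the lowest of the SAT libraries. Pdgfra stood at 835, 847 and 961 CPM in the other WT SAT libraries. Zfp521 in KO VAT replicate 4 was 32.1 CPM with the nearest at 42.6, at a ratio of 0.842, in the group on which its lower KO value rests. Ebf2 in KO SAT replicate 1 was 151.7 CPM with the nearest at 175 (ratio 0.856). Ebf4 in KO SAT replicate 3 was 1.61 CPM with the nearest at 1.12 (ratio 0.89). With both WT SAT replicate 3 and KO VAT replicate 4 left out, an alternative chosen after seeing the data, edgeR called 0 of the 6 factors in KO against WT in each depot (1 at an unadjusted p under 0.05 in each), 6 in VAT against SAT in KO, 5 in WT and 0 in the interaction (3 at an unadjusted p under 0.05).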

How the results depend on the processing

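The 6 factors were recomputed over 624 combinations of comparison and alternative, of which 581 kept direction and side of the threshold, 13 lost a call (10 in the ratio to Pdgfra, an alternative chosen after seeing the data, where no adjusted exact p between depots was under 0.0572, and 3 with library totals), 8 gained one and 22 changed sign, all of the last without a call in the original fit except Zfp423 relative to Pdgfra in KO (0.091). As the exact p cannot go below 0.0286, a gene could not keep its call in the ratio to Pdgfra by its own values. DESeq2 called 1 of the 6 in KO against WT in VAT. Genes called over the whole table were 690 in VAT (1248 with DESeq2, 412 to 625 with a library left out), 992 in SAT (1710 with DESeq2, 509 with only the groups compared, 469 to 1015 with a library left out) and 45 for the interaction (563 with DESeq2, 29 with library totals, 7 to 149 with a library left out). The cause was not tested.

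Uncalled KO differences changed sign. In SAT, with WT SAT replicate 3 and KO VAT replicate 4 both left out, Ebf1 was 0.011, Ebf2 -0.013 and Zfp521 -0.0099. With a single library left out Ebf1 ran from -0.26 to 0.011, Ebf2 from -0.014 to 0.11 and Zfp521 from -0.021 to 0.096. In VAT, the ratio to Pdgfra was 0.043 for Ebf2, 0.33 for Ebf3 and 0.0072 for Zfp521, and Ebf3 was 0.026 with upper-quartile scaling, 0.029 with library totals, 0.0025 with the stricter filter, 0.0022 with only the groups compared and 0.094 with both libraries left out, and Ebf3 ran from -0.11 to 0.094 and Zfp423 from -0.11 to 0.14 with a single library left out. The interaction of Ebf3 was 0.071 with both left out.

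No label ties a replicate number across groups, and in no pair of groups did every same-numbered pair correlate over 0.1 in its deviations. Over 16 pairs these ran from -0.183 to 0.233, with 4 over 0.1 and 7 best with their own number. WT VAT and WT SAT held 3 of those 4 (-0.0822 to 0.232), with 3 of 4 libraries best with their own number. With a replicate block by number the 6 factors gave the same counts of calls, and the interaction called 14 genes in all, or 11 with a replicate block by genotype and number.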
